A study of Homo sapiens with 3 samples.

Results

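In p53 ChIP-seq of VCaP cells, the tallest signal of 1 library lay on the gene EWSR1 and on 2 processed copies of it, with smaller signals at HBB and EZH2. The places were chosen by the fold enrichment, width and pileup of peaks in the ERG shRNA list, and every listed peak overlapping their windows was taken: a 33.0 kb window at EWSR1 on chromosome 22, windows of 3.5 and 2.0 kb at its copies EWSR1P1 on chromosome 1 and EWSR1P2 on chromosome 14, 3.0 kb at HBB on chromosome 11, and 78.0 kb at EZH2 on chromosome 7. They held 37 of the 35740 peaks in all: 14 of 17986 in the control, 23 of 17321 after ERG shRNA and 0 of 433 after ERG shRNA 2. Whether the signal came from plasmid DNA was not tested. Since measured values chose the places, the pileups, widths and gaps there are given as a description.

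VCaP is an established human prostate cancer cell line, here with its endogenous p53 mutation R248W in every group. The control carried shRNA against luciferase, the ERG shRNA group a first hairpin against ERG, an ETS family transcription factor, and the ERG shRNA 2 group a hairpin numbered 2. Each group was 1 library made from several pooled immunoprecipitations, so there was no replicate check and every comparison is between libraries and not conditions. The antibody was DO-1 for the control and ERG shRNA, and the labels of the ERG shRNA 2 sample name none. The libraries held 9258451, 4853617 and 52175068 tags, and the alignments of ERG shRNA 2 carry another date-like tag in the file headers, so that hairpin and its run cannot be told apart.

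EWSR1 encodes an RNA-binding protein and is known as the partner of ETS genes in the fusions of Ewing sarcoma. A processed copy arises when spliced RNA is copied back into the genome, so it lacks the introns that separate the exons of the gene. HBB encodes the beta chain of adult haemoglobin and is known for its expression in red blood cell precursors. EZH2 encodes the catalytic subunit of the Polycomb repressive complex PRC2, which methylates histone H3 on lysine, and is known for high expression in advanced prostate cancer.

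At EWSR1 the peaks were narrow and widely separated, and they lay in the same order and at nearly the same positions in the control and ERG shRNA. ERG shRNA listed 11 peaks over 26.2 kb (29669684 to 29695859, hg19), which covered 3256 bp, or 12.4% of that span. The control listed 10 peaks over 26.2 kb (29669734 to 29695891), covering 2687 bp, or 10.3%. Widths ran from 170 to 750 bp in ERG shRNA and from 156 to 675 bp in the control, and the widest peak was the third in each list. The gaps between neighbours ran from 202 to 4271 bp in ERG shRNA and from 675 to 4369 bp in the control. The first 4 gaps were 4084, 3599, 4271 and 1376 bp in ERG shRNA, beside 4130, 3601, 4369 and 1361 bp in the control. No peak of any list lay in the first 5.68 kb of the window, and none lay within 30 kb outside it. RefSeq places EWSR1 on the plus strand (GRCh38.p14), so the first peaks lay nearer its 5′ end.

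**Figure D1:**
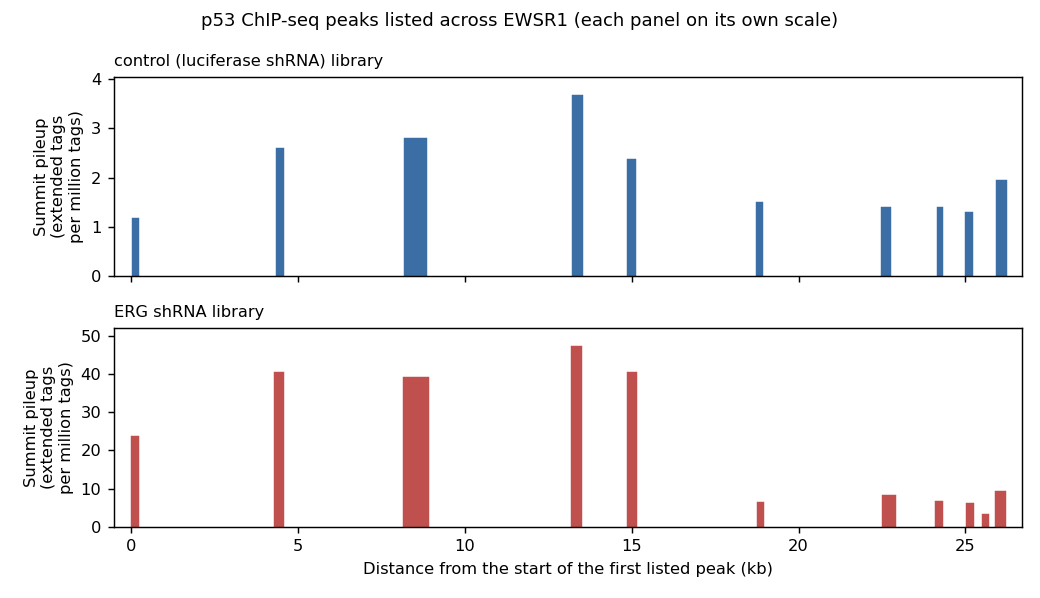
Listed peaks across EWSR1 in the control (upper panel) and ERG shRNA (lower panel). Each bar spans 1 peak, the x axis is the distance in kb from the start of the first listed peak, and bar height is the pileup at the peak's summit in extended tags per 1000000 tags of the library, with a different scale in each panel; the first 5 ERG shRNA peaks stand between 23.9 and 47.4 and the later 6 between 3.30 and 9.27.

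The pileup, the number of extended tags covering a peak's summit, fell in a step along the gene. In ERG shRNA the first peak (29669684 to 29669902) had a pileup of 116 extended tags and its control counterpart one of 11. The second peak (29673987 to 29674244) had 197 and 24. The third peak (29677844 to 29678593) had 190 and 26. These peaks were thus several times taller in ERG shRNA, the library with fewer tags. The fourth peak (29682865 to 29683174) had 230 and 34, and was the tallest of each list at EWSR1. The fifth peak (29684551 to 29684820) had 197 and 22. Because MACS kept no more than 1 tag for each position and strand, with tags extended to 115 bp in ERG shRNA, 230 was the largest pileup that this library allowed, so the fourth peak was at that limit.

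After a gap of 3626 bp the later ERG shRNA peaks were lower, and they did not overlap the first 5 in pileup. The sixth peak (29688447 to 29688623) had a pileup of 31 and its control counterpart 14. The seventh peak (29692186 to 29692582) had 40 and 13. The eighth peak (29693786 to 29693978) had 33 and 13. The drop from the fifth to the sixth peak was 6.35 times in ERG shRNA and 1.57 times in the control. The ninth peak (29694694 to 29694907) had 30 and 12. The last peak (29695562 to 29695859) had 45 and 18. The tenth ERG shRNA peak (29695190 to 29695359), with a pileup of 16, had no control counterpart.

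Averaged over its peaks, the first part of the gene stood at 186 ± 42.1 extended tags in ERG shRNA (SD over 5 peaks of 1 library) and the later part at 32.5 ± 9.93 (6 peaks), a ratio of 5.72. In the control the same parts stood at 23.4 ± 8.29 and 14.0 ± 2.35 (5 peaks each), a ratio of 1.67. The control parts overlapped, since its first peak, with 11, was lower than each of its later peaks. The ends of the first part were set where the largest drop was seen. The SD describes peaks along the gene and is no replicate error.

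The copies were covered over most of their spans, where the gene showed separate peaks. At EWSR1P1 the ERG shRNA peaks covered 1836 of the 2043 bp from the first to the last (166244849 to 166246891), or 89.9%, and the control peaks 1661 of 1763 bp, or 94.2%. At EWSR1P2 a single ERG shRNA peak of 640 bp (36350195 to 36350834) left no gap, and the control listed peaks of 162 and 183 bp there (36350239 to 36350400 and 36350511 to 36350693) that were 110 bp apart and covered 75.8% of their span. RefSeq gives EWSR1P1 a length of 2183 bp and EWSR1P2 764 bp, against 32254 bp for EWSR1 (GRCh38.p14, used for lengths only). Beside these lengths, the bases covered in ERG shRNA amounted to 84.1% at EWSR1P1, 83.8% at EWSR1P2 and 10.1% at EWSR1. In the control they amounted to 76.1%, 45.2% and 8.33%.

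EWSR1P1 also had a tall and a low stretch. Its widest peak (166245446 to 166246891 in ERG shRNA) was 1446 bp wide with a pileup of 203, and the control counterpart was 1384 bp wide with 24. The peak beside it (166245082 to 166245356) was 275 bp wide with a pileup of 33, and the control counterpart 277 bp with 15. Each of the widest peaks was also the widest of its whole list. The tall stretch stood 6.15 times above the low one in ERG shRNA and 1.60 times in the control. The drops from the fifth to the sixth peak of the gene were 6.35 and 1.57 times, and the ratios of its part averages 5.72 and 1.67. The tall ERG shRNA peaks behind the 6.15 and the 6.35 stood at 88.3% and 85.7% of the pileup limit, so both of these ratios may be too low. Which parts of the gene the stretches of the copy match was not analysed. A further ERG shRNA peak of 115 bp (166244849 to 166244963) had a pileup of 5 and no control counterpart. At EWSR1P2 the ERG shRNA pileup was 118, and both control peaks had 11.

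The gene and its copies share sequence, so tags that match more than one of them may have been placed at either, and the 3 places are not independent. The sources used here do not say how such tags were placed. The nearest listed peaks outside the EWSR1P1 window were 5.84 kb away in ERG shRNA and 5.94 kb away in the control, with pileups of 4 and 7, and none lay within 30 kb of the EWSR1P2 window.

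**Figure D2:**
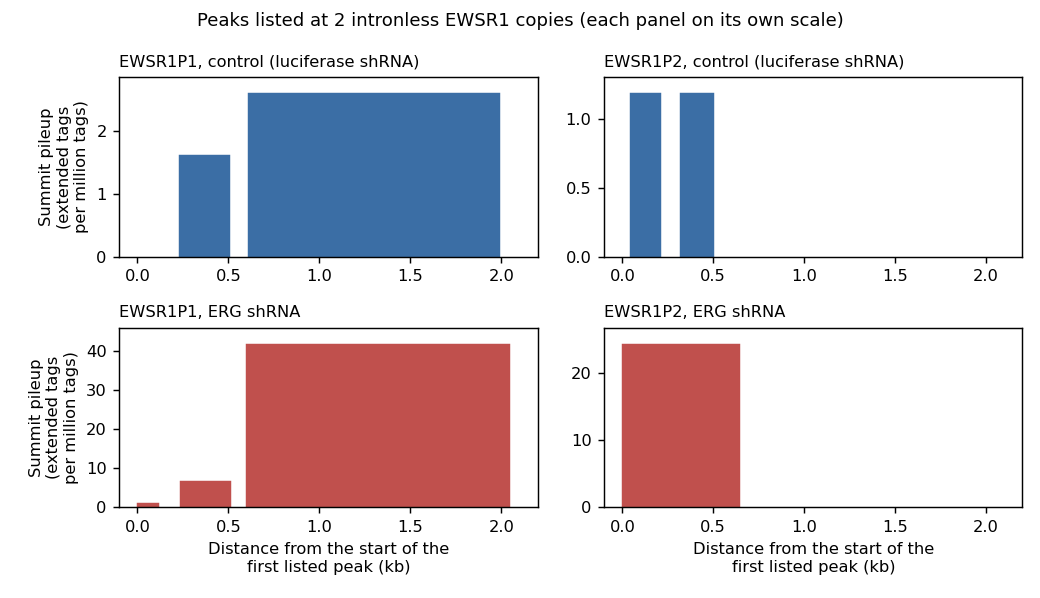
Listed peaks at the processed copies EWSR1P1 (left) and EWSR1P2 (right) in the control (upper) and ERG shRNA (lower). Axes are as in the plot of peaks across EWSR1, with a different y scale in each panel; the EWSR1P1 peaks fill 89.9% of their span in ERG shRNA and 94.2% in the control.

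The comparison of ERG shRNA with the control asks what changed on chromatin when ERG was knocked down, and at these places ERG shRNA was the higher library in every overlapping pair. An ERG shRNA peak overlapped all 14 control peaks at the places, where 13.5% of all control peaks were overlapped. Of the 23 ERG shRNA peaks at the places, 13 (56.5%) met a control peak, where 14.0% of the whole ERG shRNA list did. The choice of places by ERG shRNA peaks largely fixed the first count. Scaled to 1000000 tags of each library, the pileup was 12.9 to 20.1 times higher in ERG shRNA at the first 5 EWSR1 peaks, and 4.22 to 5.87 times at the 5 later ones that were paired. It was 4.20 and 16.1 times higher at the 2 EWSR1P1 pairs and 20.5 times at EWSR1P2. Over the 2430 pairs elsewhere the median ratio was 1.33 and the highest 4.77. A ratio over 4 was found in 18 of 2444 pairs (0.736%), and 14 of these were at EWSR1 and its copies. The 2 pairs at EWSR1P2 hold the same ERG shRNA peak. Since high values in ERG shRNA chose the places, nothing is read from those counts. Tags were extended to 148 bp in the control and 115 bp in ERG shRNA, and longer tags raise a pileup, so the ratios are not corrected for that length.

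**Figure D3:**
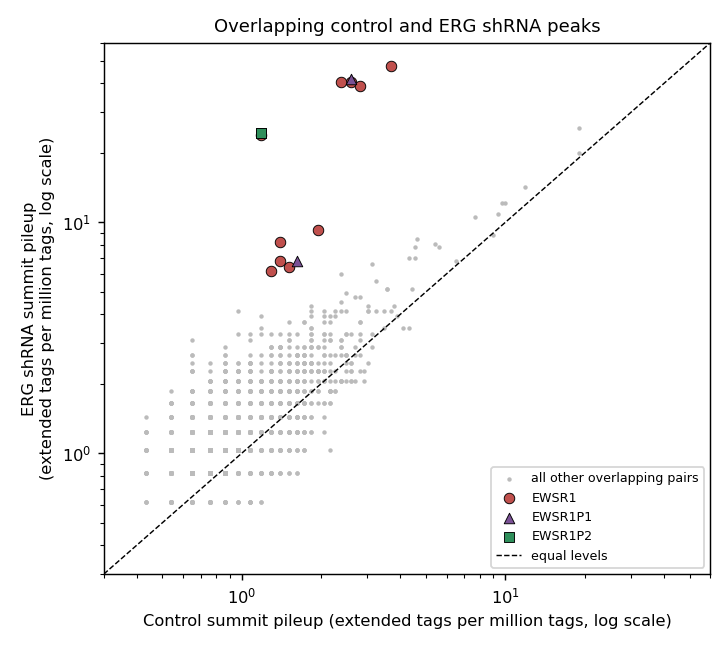
Summit pileup in the control (x axis) and ERG shRNA (y axis) for the 2444 overlapping pairs of peaks, both in extended tags per 1000000 tags on log scales; grey points are pairs elsewhere, coloured points those at EWSR1 and its copies, and the dashed line marks equal levels. The 14 coloured pairs lie above the line by 4.20 to 20.5 times, and the pairs elsewhere reach at most 4.77 times.

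Over EWSR1 and its copies 9 of 14 pairs had both edges within 50 bp of each other: 8 of 10 at EWSR1, 1 of 2 at EWSR1P1 and 0 of 2 at EWSR1P2. This compares with 42.6% of all pairs and 74.7% of the 75 pairs elsewhere with an ERG shRNA pileup of at least 16. At EWSR1P2 both pairs hold the same wide ERG shRNA peak. The local background that MACS takes from the input was recovered at these peaks. Its lowest possible value is the genome-wide one, and both libraries were called against an input of the same tag total, so it cannot show a difference between them. The background recovered at the ERG shRNA peaks of EWSR1 was 1.00 to 4.90 times the genome-wide value, and at those of the copies 1.00 to 1.88 times. At the control peaks of EWSR1 it was 1.00 to 3.81 times. The most raised background, 4.90 times, was at the eighth ERG shRNA peak, in the low part of the gene, and the tallest peak had 1.00 times.

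The next values describe where the places stood in the lists; pileup and width helped to choose them, so the counts are no test. ERG shRNA held 8 peaks with a pileup over 100, of which 7 were at EWSR1 and its copies. The remaining one, on an unplaced contig, had a pileup of 124 with a background of 177 times the genome-wide value and a fold enrichment of 3.33. The ERG shRNA peaks in the top 0.1% of the list for both pileup and width were 3 in number: the 1446 bp peak at EWSR1P1, the 750 bp peak at EWSR1 and the peak at EWSR1P2. Runs of at least 4 neighbouring peaks in the top 1% by pileup, at most 10 kb apart, numbered 3 in ERG shRNA and 7 in the control, with EWSR1 among them in each list. At EWSR1 the median background of those peaks was 1.63 times the genome-wide value in ERG shRNA and 1.27 times in the control. The other 2 ERG shRNA runs had 109 and 80.6 times, and the other 6 control runs 4.45 to 14.9 times. The values at EWSR1 rest on few input tags and are not compared between the lists. The control list held 2 peaks with a pileup over 100, of which 0 were at the places. In the control, EWSR1 did not hold the strongest peaks: its highest fold enrichment, 21.3, ranked 8 in the list, below 28.5 on chromosome 15.

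**Figure D4:**
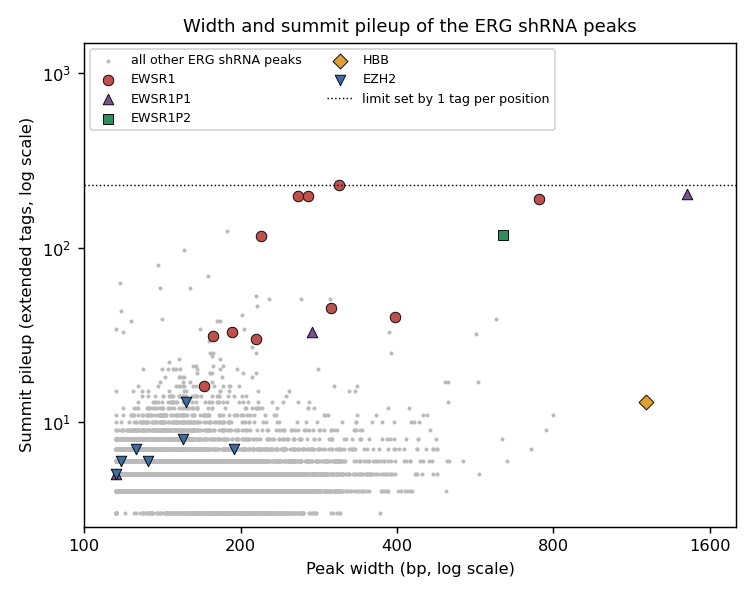
Width in bp (x axis) and summit pileup in extended tags (y axis) of the 17321 ERG shRNA peaks, on log scales; grey points are other peaks, coloured symbols those at the 5 places, and the dotted line is the limit of 230 set by 1 tag per position and strand. The 7 tallest peaks of EWSR1 and its copies stand at pileups of 116 to 230, where 1 grey point at 124 also lies, the HBB peak stands apart by its width of 1208 bp, and the EZH2 peaks lie among the others.

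HBB carried 1 wide, low peak, in ERG shRNA alone. It ran from 5246138 to 5247345 on chromosome 11, was 1208 bp wide and had a pileup of 13 extended tags and a fold enrichment of 11.6. The control and ERG shRNA 2 listed no peak in the window. Over the whole ERG shRNA list, 14.0% of peaks were overlapped by a control peak and 0.306% by an ERG shRNA 2 peak. By width it ranked 2 in the ERG shRNA list, after the peak at EWSR1P1, and these were the 2 peaks of at least 1000 bp. By pileup it was among the 185 ERG shRNA peaks with 13 or more, about the top 1% of the list, far below the tall peaks of EWSR1. HBB has introns, and RefSeq gives it a length of 1608 bp (GRCh38.p14). Which part of the gene the peak covers, and whether it extends past an end, was not measured, because no hg19 annotation was used. The signal was unbroken over its 1208 bp. MACS joins signal across gaps of up to the tag size, here 83 bp, so shorter breaks would not show. The background at the peak was 1.00 times the genome-wide value. The nearest control peak was 7.13 kb outside the window (5238163 to 5238369), with a pileup of 8.

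EZH2 carried 7 low, narrow peaks, also in ERG shRNA alone. Most peaks of that list were alone in this sense, since 14.0% of them were overlapped by a control peak. They spanned 18.8 kb (148511075 to 148529866 on chromosome 7) and covered 998 bp of it, or 5.31%. The last peak (148529710 to 148529866) was the tallest, with a pileup of 13 and a width of 157 bp. The first (148511075 to 148511229) had 8 and a width of 155 bp. The second (148511994 to 148512108), with 5, was the lowest and had the smallest width the list allows, 115 bp. The third (148513768 to 148513885) had 6 and the fourth (148515031 to 148515224) 7, with the largest width of the 7, 194 bp. The fifth (148523594 to 148523726) had 6 and the sixth (148525851 to 148525976) 7. The median pileup of the whole list of 17321 peaks was 5, the pileup of the second peak. In that list 3654 peaks had 6 or more, 1818 had 7 or more and 1056 had 8 or more. Gaps ran from 764 to 8369 bp, and the longest lay between the fourth and the fifth peak.

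The EZH2 peaks lay to one side of the gene's window: none was listed in the 52.1 kb above the last peak. RefSeq places EZH2 on the minus strand (GRCh38.p14) with a length of 76909 bp, so the peaks lay nearer its 3′ end. They passed the list's cutoff one by one, but only 3 of the 7 had a −log10 q of at least 5. The ERG shRNA list held 63 stretches with at least 7 peaks within the same 18.8 kb, those at EZH2 and EWSR1 included. Chromosome 9 held 16 of them and chromosome 1 held 12. In 6 of the 63 there was no control peak, EZH2 among them, and the median stretch held 4. The stretches were not matched to EZH2 in background or pileup, so these counts do not show how rare its pattern is.

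**Figure D5:**
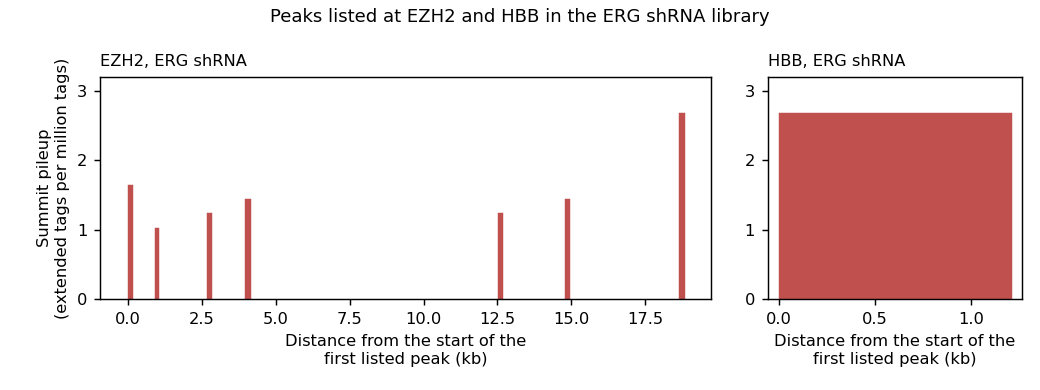
Listed ERG shRNA peaks at EZH2 (left) and HBB (right), with the distance in kb from the start of the first listed peak on the x axis and the summit pileup in extended tags per 1000000 tags on the y axis. The 7 EZH2 peaks stand apart from each other with scaled pileups of 1.03 to 2.68, and the HBB peak is a single block at 2.68.

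The control had 1.91 times the tags of ERG shRNA. At the same depth-scaled pileup, the 10 ERG shRNA peaks without a control overlap would have had pileups of 9.54 to 30.5 in the control. The smallest pileups computed to pass its p cutoff at those backgrounds were 5 to 8, and each of the 10 was above its own. The control list held pileups as low as 4, so the computed values were somewhat too high. Counting error at pileups this low is large, and this bound holds for these libraries only. A pileup of 5, the median of the ERG shRNA list, scales to 9.54 in the control, so depth largely fixed that all 10 passed. Of all ERG shRNA peaks, 14.0% were overlapped by a control peak, so nothing about these places is read from the 10.

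ERG shRNA 2 listed no peak at any of the 5 places, nor within 30 kb of them. Its list is short, and an ERG shRNA 2 peak overlapped 0.284% of all control peaks and 0.306% of all ERG shRNA peaks. Shares of 0 of 14 and 0 of 23 are near these. The whole lists are mostly lower peaks, so their shares give no expectation for the tall peaks here. The control peaks at EWSR1 and its copies would have had pileups of 17.1 to 52.7 in ERG shRNA 2 at the same depth-scaled level, after MACS scaled that library to its input. The smallest listable pileups computed there were 6 to 11, and all 14 were above their own. For the 23 ERG shRNA peaks the same scaling gave 14.8 to 681, against smallest listable pileups of 6 to 12, and all 23 were above their own. The tallest pileup that library allowed after scaling was 84.8, so the largest of these values could not have been reached there. A pileup of 5, the median of the ERG shRNA list, scales to 14.8 there. The scaled ERG shRNA 2 library held 14360465 tags, more than either other library, so depth largely fixed that all these peaks passed. Why none of these peaks was listed was not tested. No difference between the hairpins was tested.

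Whether each peak at EWSR1, HBB and EZH2 lies on an exon was not analysed here, because no annotation of build hg19 was used. The pattern of narrow peaks with wide gaps at a gene, and of mostly covered spans at intronless copies, was measured for EWSR1 and its copies. For HBB the signal was an unbroken block, and for EZH2 no processed copy was among the places.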

How the data were processed

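Binding of p53 was measured by ChIP-seq in 3 libraries, 1 per group. The submitters' processing notes name build hg19 and the tools MACS2, bedtools, Bowtie2 and Picard 2.14.0, without their roles. MACS 2.2.7.1, per the file headers, called peaks in each library against an input of 14360465 tags with a p cutoff of 0.001, keeping at most 1 tag per position. The ERG shRNA 2 header names its input differently. Per the file headers, the larger data set of each pair was scaled down, so control and ERG shRNA pileups are unscaled. The pileup that the authors deposited is signal (coverage by extended tags) at the summit. Their deposited fold is a ratio, pileup over local background after adding 1 to both. The deposited significance columns hold −log10 of p and of q, in MACS order because their headings were damaged. The second sheets repeat the coordinates and were not used.

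The background was recovered from pileup and fold. The genome-wide background is tags times tag length over the effective genome size. The largest possible pileup is the extended tag length times the 2 strands. Pileups per 1000000 tags used the tags after scaling. Peaks were paired at an overlap of at least 1 bp. Smallest listable pileups came from the Poisson tail, for whole pileups. They were somewhat too high, since the lists held pileups down to 4 in the control and 5.5 in ERG shRNA 2. Overlap rules were tested on 3000 simulated peaks, with 0 misassigned. Scripts ran in Python 3.11.15 (matplotlib 3.10.9, scipy 1.17.1, pandas 2.3.3, numpy 2.4.6). Every listed peak in the windows was named. The places, lists and tests were chosen with earlier results of these data known. Coordinates are 1-based hg19 positions; windows, not annotation, tie them to genes. Relatives of the 3 genes, planned for comparison, were not analysed here. Alternatives varied the list, the window, joining, the overlap rule and the scale of the pileup.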

Additional observations from a re-analysis of the deposited data

Results flagged for a closer look

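At EWSR1 and EWSR1P1 1 hairpin listed more peaks than the control and the other fewer. At EWSR1 ERG shRNA minus control was 1 peak and ERG shRNA 2 minus control was -10. At EWSR1P1 the differences were 1 and -2. With 1 library each, the difference between the hairpins was not tested. The ERG shRNA 2 list held 433 peaks against 17986 in the control, and overlapped 0.284% of control peaks. At the same depth-scaled pileup, all 14 control peaks at the places were above the smallest pileups computed as listable in ERG shRNA 2. The larger number of tags in ERG shRNA 2 largely fixed that count. Why none was listed there was not tested. With only peaks of a fold of at least 5, or of a −log10 q of at least 5, EWSR1P1 had 2 peaks in the control and 2 in ERG shRNA.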

How the results depend on the processing

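Of 110 alternatives over 34 values, 92 left the value within 1.5 times the count or length, or within its counting interval, and 18 moved it. Some of the 92 could not have moved, such as a count of 0 under a stricter limit or a ratio within 1 library rescaled by its depth. The ERG shRNA over control ratios all moved when taken per 1000000 tags or divided by background. ERG shRNA over control, by summed pileup, was 7.95 (counting interval 6.55 to 9.72) at the first 5 EWSR1 peaks, 2.56 (1.93 to 3.42) at the later ones and 7.08 (5.25 to 9.72) at the copies. Per 1000000 tags these were 15.2, 4.88 and 13.5, divided by background 19.0, 5.17 and 14.2, and as a share of the pileup limit the first was 10.2. The first 5 over the later paired EWSR1 peaks gave 5.20 in ERG shRNA and 1.67 in the control, and divided by background 9.41 and 2.57. All these ratios stayed above 1, which the choice of the places and of the boundary within EWSR1 largely fixed, so this is no test. The counting intervals treat the summed pileups of chosen peaks in 1 library as independent counts. With peaks up to 150 bp apart joined, the counts were 1 at EWSR1P1 in either list and 1 at EWSR1P2 in the control. Limited to −log10 q of 5 or more, the control list had 1 peak of 162 bp at EWSR1P2, and EZH2 had 3 ERG shRNA peaks, covering 438 bp with a median gap of 9177 bp. Windows widened by 10 kb added 1 control peak at HBB. Joining left no gap to measure at the copies, and neither did the q limit at EWSR1P2. No paired analysis was possible because there was only 1 library in each group. What caused these changes was not tested. Pileups at the limit of 230 cannot show a larger difference, and those near it are compressed. EZH2 pileups of 5 to 13 carry wide counting error.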

Other observations

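A further run of ERG shRNA peaks without control or ERG shRNA 2 peaks, found after the values were seen, lay on chromosome 11 far from HBB. It held 4 peaks over 52.9 kb, at 128628003 to 128628173, 128638023 to 128638137, 128642682 to 128642842 and 128680354 to 128680854. Their pileups were 8, 5, 11 and 13 extended tags and their widths 171, 115, 161 and 501 bp. The background was 1.63 to 1.73 times the genome-wide value at the first 3 and 6.54 times at the last. The pileups lay in the range of those at EZH2, but the run was longer than the 18.8 kb there. No gene was assigned to it. How many like runs the ERG shRNA list holds was not counted. Over that whole list, 14.0% of peaks were overlapped by a control peak and 0.306% by an ERG shRNA 2 peak.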
